A study of Mus musculus with 8 samples.

Results

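Grm2, Grm3, Grm4, Grm5, Grm6, Grm7 and Grm8 encode metabotropic glutamate receptors, and these 7 genes, chosen by name, stand among 21631 protein-coding genes on chromosomes 1 to 19 and X. The choice was made with the comparison of sgNr2f2 and sgRosa libraries in view, since Grm8 had been noted for fewer peaks in sgNr2f2. Their group differences are therefore given as descriptions, without a test. The measured quantity was the number of ATAC-seq peaks, stretches of chromatin open to the Tn5 transposase, whose summit lay in a gene or within 5 kb of it.

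The study profiled amygdala neurons of male C57BL/6J mice after stress and fear learning. In the sgNr2f2 group (4 libraries), an adeno-associated virus had delivered a neuron-targeting guide against Nr2f2, which encodes the nuclear receptor COUP-TFII. In the sgRosa group (4 libraries), the virus carried a control guide against the Rosa26 locus. All animals of both groups had waited more than 2 weeks after injection and had then passed through 7 days of tube restraint, fear conditioning on 1 day and extinction over 3 days, so no unstressed group was compared. Neurons were collected with a magnetic adult neuron isolation kit, and the labels give no selection for cells that carried the virus. Peak lists measure no transcript and no editing, so the extent of Nr2f2 knockdown was not checked here.

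Metabotropic glutamate receptors are G protein-coupled receptors that tune the strength of synapses rather than carry the fast synaptic current. Group I receptors, here Grm5, couple through Gq to phospholipase C and sit mainly on the postsynaptic side. Group II (Grm2 and Grm3) and group III (Grm4, Grm6, Grm7 and Grm8) receptors couple through Gi and Go, lower cyclic AMP and, at many terminals, restrain transmitter release. In the amygdala these receptors are studied for their part in fear learning and extinction.

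The 8 libraries listed 53864 to 103939 peaks in sgNr2f2 and 60880 to 143405 peaks in sgRosa. The lists hold no read totals, so the depth of each library is unknown. To set libraries side by side, the strongest 53864 peaks of each list by −log10 p were used unless the full lists are named. Many peaks were tied at that limit and shared the remaining places evenly, which gives some peak numbers a fraction. Most peaks were weak, since only 4.81% to 18.6% of a full list had a q value under 0.05. Summed over the 9 neuron markers, 22.7 to 38 peaks lay within 1 kb of the genes in sgNr2f2 libraries and 33.0 to 51 in sgRosa libraries, where a list of average density would give 26.6. The 5 astrocyte markers had 5 to 14 peaks in sgNr2f2 and 1 to 5 in sgRosa (3.71 at average density), and the 5 microglia markers 2 to 6.29 in sgNr2f2 and 1 to 4 in sgRosa (3.37 at that density). The 5 oligodendrocyte markers had 2 to 8.70 peaks in sgNr2f2 and 1 to 8 in sgRosa (4.18 at that density), and the 4 vascular markers 4.86 to 7 in sgNr2f2 and 3 to 10 in sgRosa (5.78 at that density). C1qa (microglia) was at 0 in every library, and the part of other cell types in the values below was not tested.

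The members range from compact to among the very long genes of the genome. In mm10, Grm2 spans chromosome 9, 106644534 to 106656109 (11576 bp), and Grm6 chromosome 11, 50850369 to 50866208 (15840 bp). Grm4 spans chromosome 17, 27422387 to 27513826 (91440 bp), Grm3 chromosome 5, 9485236 to 9725352 (240117 bp), and Grm5 chromosome 7, 87583981 to 88135063 (551083 bp). Grm8 and Grm7 lie far apart on chromosome 6, at 27275121 to 28135146 (860026 bp) and 110645349 to 111567230 (921882 bp).

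No list had a peak summit within 1 kb of any of the 8 annotated start sites of Grm2, Grm3, Grm6, Grm7 and Grm8, even at full length. Of 17274 genes with an annotated start, 47.7% had such a peak in at least 1 full list. The nearest summit lay 1156 bp from the start of Grm2, 1755 bp from a start of Grm7, 2144 bp from that of Grm6, 3168 bp from a start of Grm8 and 4045 bp from that of Grm3. Promoter sequences from RefSeq (GRCm38.p6, the assembly of mm10) are shown for the genes the results turn on and for Grm2, whose start came nearest to a summit. Each runs 5′ to 3′ on the strand of the gene, from 250 bases before the start to 50 after it, with CpG dinucleotides (CG on either strand) in capitals.
Grm8 promoter at the outermost start, chr6:28135097-28135396, minus strand: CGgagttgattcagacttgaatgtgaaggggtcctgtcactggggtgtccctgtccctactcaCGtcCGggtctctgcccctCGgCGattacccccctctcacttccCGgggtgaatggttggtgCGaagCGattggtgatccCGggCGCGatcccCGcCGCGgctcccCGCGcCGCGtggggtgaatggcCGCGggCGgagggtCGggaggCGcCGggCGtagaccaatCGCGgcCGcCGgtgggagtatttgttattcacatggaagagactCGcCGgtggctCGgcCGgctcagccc
Grm7 promoter at the outermost start, chr6:110645262-110645561, plus strand: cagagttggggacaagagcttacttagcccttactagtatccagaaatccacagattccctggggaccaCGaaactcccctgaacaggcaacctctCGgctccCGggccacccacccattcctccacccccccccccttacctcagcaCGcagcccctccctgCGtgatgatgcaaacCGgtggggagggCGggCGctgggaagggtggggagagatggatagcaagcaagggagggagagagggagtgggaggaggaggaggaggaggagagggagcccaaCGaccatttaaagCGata
Grm2 promoter, chr9:106656060-106656359, minus strand: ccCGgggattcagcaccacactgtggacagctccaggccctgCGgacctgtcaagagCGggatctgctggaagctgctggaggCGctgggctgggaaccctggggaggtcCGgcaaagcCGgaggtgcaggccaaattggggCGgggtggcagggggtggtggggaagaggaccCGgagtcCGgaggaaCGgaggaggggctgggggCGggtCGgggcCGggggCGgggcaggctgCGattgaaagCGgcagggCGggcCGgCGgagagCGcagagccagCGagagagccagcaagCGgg

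The outermost Grm8 promoter held 33 CpG dinucleotides, a number that 8.62% of 32619 promoters of this length reach. Grm2 had 22 (reached by 23.3%) and the Grm7 promoter shown 10 (reached by 43.8%), against a median of 7 over all promoters. CpG-dense promoters often lie in open chromatin, and none of these was marked by a peak within 1 kb in these lists. The letters AGGTCA, the half-site bound by nuclear receptors of the COUP-TF family, were searched on both strands (AGGTCA or TGACCT). They occurred in 16.2% of the 32619 promoters and in 1 of the 8 member promoters, that of the innermost Grm8 start, where TGACCT begins 42 bases after the start and is shown in capitals.
Grm8 promoter at the innermost start, chr6:28126377-28126676, minus strand: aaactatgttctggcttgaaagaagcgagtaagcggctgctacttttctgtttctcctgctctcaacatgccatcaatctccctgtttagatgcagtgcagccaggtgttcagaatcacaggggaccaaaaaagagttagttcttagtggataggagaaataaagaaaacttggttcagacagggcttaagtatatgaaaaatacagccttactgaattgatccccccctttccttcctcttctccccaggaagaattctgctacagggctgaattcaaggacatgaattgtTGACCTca

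The single group I member, Grm5, encodes a Gq-coupled receptor found mainly on the postsynaptic side. It had 6, 8.72, 6.70 and 12 peaks in sgNr2f2 libraries 1 to 4, against 8.78, 11.0, 11 and 8 in sgRosa libraries 1 to 4. The ranges overlapped, with a mean of 8.35 ± 2.69 in sgNr2f2 against 9.69 ± 1.53 in sgRosa (all SD, n = 4 per group). Grm5 was the steadiest of the long members: the variance of its peak number over the 8 libraries was 0.512 times the mean, against a median of 1.82 over 973 genes of at least 200 kb with a peak.

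Among the group II genes, Grm2 encodes a presynaptic autoreceptor, and Grm3 a receptor also found on astrocytes. Grm2 had 1, 0, 1 and 2 peaks in sgNr2f2 and 0, 0, 0 and 2 in sgRosa, numbers too small to separate any libraries. Grm3 had 11, 7, 7.09 and 1 peaks in sgNr2f2, against 0, 4.99, 3 and 4 in sgRosa. Libraries sgNr2f2 1 to 3 lay above every sgRosa library and sgNr2f2 4 fell among them, so the groups overlapped (6.52 ± 4.13 in sgNr2f2 and 3.00 ± 2.16 in sgRosa). The difference of 3.52 peaks became 2.03 without sgNr2f2 1 and 5.36 without sgNr2f2 4. At a q value under 0.05, Grm3 peaks were listed in sgNr2f2 alone, with 4, 1, 1 and 0 peaks, while all 4 sgRosa libraries had 0. The astrocyte markers given above were also higher in sgNr2f2 1 (14 peaks) than in any other library, and their part in the Grm3 values was not tested.

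The group III genes Grm4 and Grm6 are short enough to hold few peaks. Grm4, a presynaptic receptor, had 6, 1.29, 5 and 8 peaks in sgNr2f2 and 4, 4, 3 and 5 in sgRosa. The sgRosa libraries kept within 2 peaks of each other while the sgNr2f2 libraries lay on both sides of them (5.07 ± 2.81 in sgNr2f2 and 4 ± 0.816 in sgRosa). Grm6, known for its place in the ON bipolar cells of the retina, had 1, 2, 2 and 0 peaks in sgNr2f2 and 0, 1, 3 and 2 in sgRosa, with full overlap.

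Grm7, a low-affinity receptor of the presynaptic active zone, is the longest member and the most variable. It had 17, 30.4, 17.8 and 13 peaks in sgNr2f2, against 47.3, 22.0, 11 and 22 in sgRosa. The highest and the lowest library both belonged to sgRosa, so the sgNr2f2 values lay inside the sgRosa range (19.6 ± 7.55 in sgNr2f2 and 25.6 ± 15.4 in sgRosa). Its difference of −6.03 peaks, sgNr2f2 minus sgRosa, became 1.23 without sgRosa 1. The variance of Grm7 over the 8 libraries was 6.05 times the mean, at the 98.6th percentile of the 973 long genes.

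Grm8, a presynaptic receptor with higher affinity for glutamate than Grm7, was the only member whose groups did not overlap. It had 19, 12.7, 7.39 and 20 peaks in sgNr2f2 libraries 1 to 4, against 33, 26.0, 30 and 24 in sgRosa libraries 1 to 4. Every sgNr2f2 library lay below every sgRosa library, with 4 peaks between the closest of them. The mean was 14.8 ± 5.88 peaks in sgNr2f2 and 28.2 ± 4.03 in sgRosa, 0.523 times as many in sgNr2f2. Such a gap in this direction was present in 0.42% of 19299 genes with a peak, in 1.64% of the 973 genes of at least 200 kb, in 3.54% of the 226 genes of at least 500 kb and in 3.12% of the 64 genes of at least 200 kb on chromosome 6. Because Grm8 was picked on this contrast, nothing is read from its place among them. For scale, its difference of −13.5 peaks was the 8th lowest of those 226 long genes, while that of Grm7 was the 42nd lowest.

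**Figure D1:**
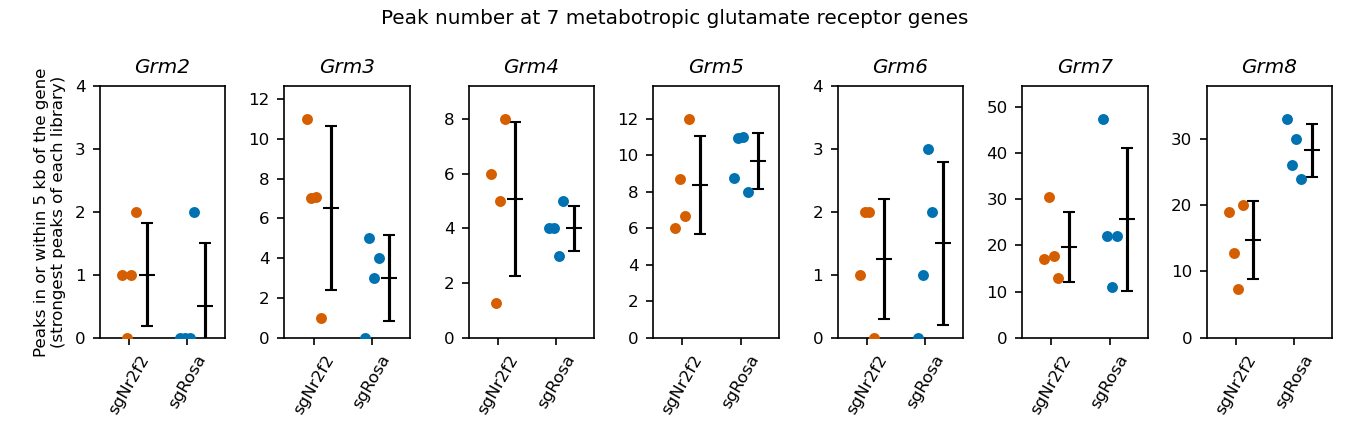
Each panel shows 1 receptor gene, with its peak number (summit in the gene or up to 5 kb away) on the vertical axis (strongest 53864 peaks per library), 1 point per library and the mean with SD in black (n = 4 per group, sgNr2f2 left). The Grm8 points do not overlap (7.39 to 20 in sgNr2f2, 24 to 33 in sgRosa), while those of the other 6 genes do.

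Summed over all 7 genes, sgNr2f2 libraries had 61, 62.2, 47.0 and 56 peaks, against 93.1, 68.9, 61 and 67 in sgRosa. Grm8 carried most of the difference in mean of −16.0 peaks, and without it the other 6 genes had 41.8 ± 5.69 peaks in sgNr2f2 and 44.3 ± 11.98 in sgRosa. The full lists gave the same order for Grm8 only once the length of the list was taken into account. They held 47, 21, 9 and 20 Grm8 peaks in sgNr2f2 and 36, 29, 31 and 71 in sgRosa, which overlap. Per 10000 listed peaks this was 4.52, 2.15, 1.42 and 3.71 in sgNr2f2, against 5.66, 4.65, 5.09 and 4.95 in sgRosa, which do not overlap. Among peaks with a q value under 0.05, few were left at Grm8, with 2, 1, 3 and 1 in sgNr2f2 and 10, 2, 6 and 4 in sgRosa, and the groups overlapped.

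The Grm8 difference was smaller relative to its surroundings. Chromosome 6 as a whole held 3593, 3306, 3007 and 2318 peaks in sgNr2f2, against 4512, 3165, 3276 and 3575 in sgRosa. Per 1000 peaks of chromosome 6, Grm8 had 5.29, 3.85, 2.46 and 8.63 in sgNr2f2 and 7.31, 8.21, 9.16 and 6.71 in sgRosa. On this scale sgNr2f2 4 lay above sgRosa 1, 2 and 4, so the groups overlapped (5.06 ± 2.65 in sgNr2f2 and 7.85 ± 1.07 in sgRosa). The ratio of Grm8 density to that of the 1 Mb on each side was 0.949, 0.784, 0.498 and 1.12 in sgNr2f2, against 1.04, 1.49, 1.60 and 1.13 in sgRosa. Here too the groups overlapped, because sgNr2f2 4 exceeded sgRosa 1, with means of 0.838 ± 0.265 in sgNr2f2 and 1.32 ± 0.276 in sgRosa.

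**Figure D2:**
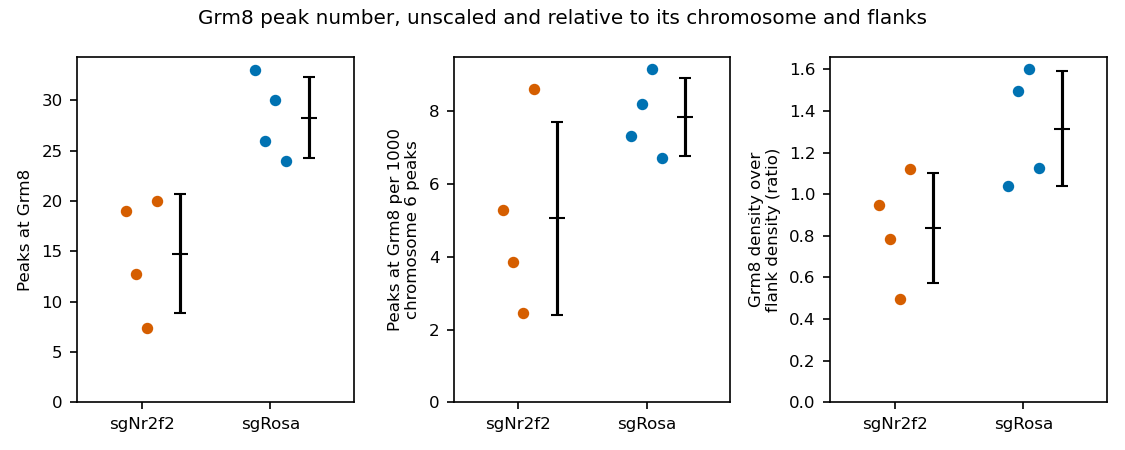
The 3 panels plot, from left to right, the number of Grm8 peaks, Grm8 peaks per 1000 peaks of chromosome 6, and the ratio of Grm8 peak density to flank density, with 1 point per library, sgNr2f2 left of sgRosa, and the mean with SD in black (n = 4). The groups are apart in the left panel and overlap in the others, where sgNr2f2 4 (8.63 per 1000 peaks and a ratio of 1.12) lies among the sgRosa libraries.

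The flanks were not used to choose the genes, so their group difference was tested. The test was an exact permutation (two-sided, 70 assignments of the 8 libraries) with Benjamini-Hochberg adjustment over 21422 genes with a flank peak. The flanks of Grm8 adjoin the gene and share its chromosome, so their test may not be independent of the choice of Grm8. Around Grm8, the 2 Mb of flank held 46, 37.3, 34.1 and 41 peaks in sgNr2f2, against 73.1, 40.0, 43 and 49 in sgRosa. The groups overlapped and the difference of −11.7 peaks did not pass (39.6 ± 5.12 in sgNr2f2 and 51.3 ± 15.05 in sgRosa; exact p = 0.171, adjusted p = 0.574). The Grm7 flanks also had a lower mean in sgNr2f2 (40.7 ± 9.06) than in sgRosa (54.8 ± 14.6), again short of the threshold (exact p = 0.2, adjusted p = 0.595). Lower means stood beside Grm3, with 35.5 ± 7.25 in sgNr2f2 and 47.5 ± 5.66 in sgRosa (exact p = 0.0571, adjusted p = 0.467). A higher mean stood beside Grm2, with 60.1 ± 20.7 in sgNr2f2 and 38.3 ± 13.1 in sgRosa (exact p = 0.114, adjusted p = 0.521). The Grm6 flanks had 41.9 ± 7.75 in sgNr2f2 and 53.0 ± 6.39 in sgRosa (exact p = 0.0857, adjusted p = 0.497). Of the 7 flanks, 0 passed with or without adjustment by this test, though 1 or 2 had an unadjusted p under 0.05 under some other settings. Over all genes 6.96% had an exact p under 0.05 and 0 had an adjusted one. The smallest possible exact p was 0.0286, and adjustment lets a gene pass only if most genes have it. The adjusted result was thus all but fixed by the number of libraries, and nothing is read from it.

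Per Mb, the long receptor genes had 16.1 to 24.7 peaks and the short ones 34.8 to 53.2, where the genome average was 21.0. Over the 8 libraries Grm8 had 24.7 ± 9.86 peaks per Mb, Grm7 24.2 ± 12.5, Grm3 19.03 ± 14.3 and Grm5 16.1 ± 3.83 (mean ± SD, n = 8). The short genes had 34.8 ± 41.1 (Grm2), 44.7 ± 19.7 (Grm4) and 53.2 ± 41.0 (Grm6) peaks per Mb, values that rest on 0 to 8 peaks a library. Grm4 lay above its flanks of 22.0 ± 10.5 peaks per Mb in 7 of 8 libraries, a difference not tested because the gene is shorter than 200 kb. From high to low the order was Grm6, Grm4, Grm2, Grm8, Grm7, Grm3 and Grm5, and each neighbouring pair differed by less than the larger SD of that pair. Among the 226 genes of at least 500 kb, Grm5 stood at the 5.75th percentile of density, Grm7 at the 61.1st and Grm8 at the 68.6th.

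Whether the long receptor genes held more or fewer peaks than the 1 Mb on each side was tested with limma across 990 genes of at least 200 kb, on log2 of gene over flank density with 0.5 peaks added to both. Over the 8 libraries, Grm8 had 24.7 peaks per Mb and its flanks 22.7 ± 6.07, a log2 ratio of 0.05 (SE 0.204, adjusted p = 0.959). Grm7 had 24.2 peaks per Mb and its flanks 23.9 ± 6.76, with a log2 ratio of −0.05 (SE 0.2, adjusted p = 0.956). Grm5 lay below its flanks of 19.9 ± 7.28 peaks per Mb in 7 of 8 libraries, at a log2 ratio of −0.20 (SE 0.206, adjusted p = 0.719). Grm3 gave −0.44 (SE 0.428, adjusted p = 0.694) and lay below its flanks in 5 of 8 libraries. That value rested on sgRosa 1, which had 0 Grm3 peaks, and without this library it was −0.004. Among peaks with a q value under 0.05 it was 0.23. None of these 4 genes passed, with 0 of 4 also at an unadjusted limma p under 0.05 and in an exact sign-flip test. Over all 990 genes, 3.43% were called denser than their flanks and 0.606% less dense. Of the 34 denser genes 27 lie on the X chromosome, where few peaks were listed and the added 0.5 peaks weigh most, and without the X chromosome 0 genes were called denser and 2 less dense.

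**Figure D3:**
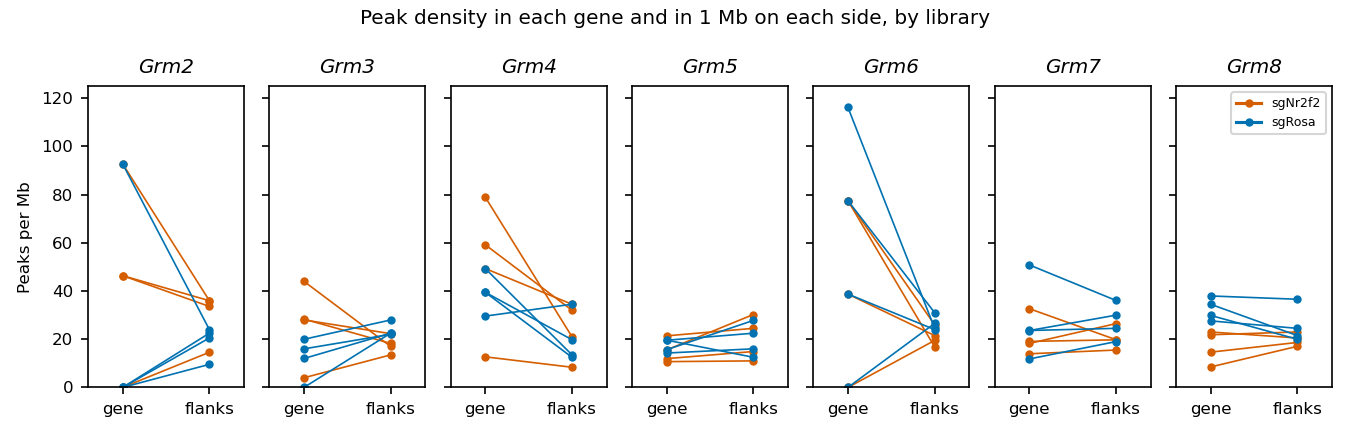
Each panel joins, for 1 receptor gene, the peak density in the gene and in the flanking 1 Mb on each side (peaks per Mb), with 1 line per library in the colour of its group. Lines for Grm7 and Grm8 run both up and down, and Grm5 lies below its flanks in 7 of 8 libraries.

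Peaks were spread along Grm8 and Grm7 rather than gathered at one place. With Grm8 divided into 5 equal segments from its start, segment 1 had 3, 2.57, 1.70 and 3 peaks in sgNr2f2, against 7, 10, 4 and 8 in sgRosa, without overlap (2.57 ± 0.615 in sgNr2f2 and 7.25 ± 2.5 in sgRosa). Such a gap was present in 0.945% of the 4760 segments with a peak in genes of at least 200 kb, and nothing is read from it in a gene picked on this contrast. In segment 2 the means were 2.32 ± 1.83 in sgNr2f2 and 3.75 ± 1.71 in sgRosa, and in segment 3 they were 2.57 ± 1.06 in sgNr2f2 and 5 ± 2.16 in sgRosa, both with overlap. Segment 4 had 11, 0.287, 0.696 and 2 in sgNr2f2 and 9, 4.99, 13 and 2 in sgRosa, so that library sgNr2f2 1 carried most of its Grm8 peaks there. Segment 5, at the far end, differed least, with 3.82 ± 2.80 in sgNr2f2 and 4.75 ± 0.499 in sgRosa. In Grm7, segment 1 likewise had a lower mean in sgNr2f2 (2.50 ± 1.80) than in sgRosa (6.75 ± 2.63), but these groups overlapped.

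**Figure D4:**
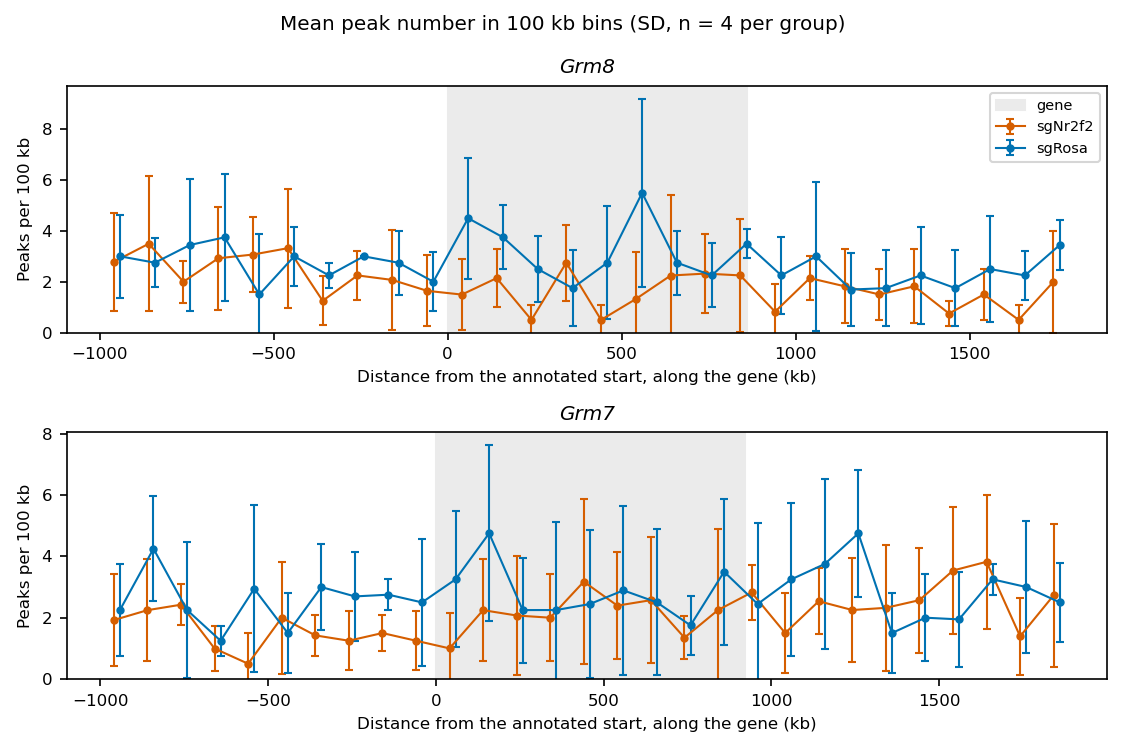
Mean peak number per 100 kb (vertical axis, SD bars, n = 4 per group) against distance from the annotated start in kb, for Grm8 above and Grm7 below, with the gene body shaded and 1 Mb on each side. In the first 100 kb of Grm8 the means are 1.5 in sgNr2f2 and 4.5 in sgRosa, with SD bars that overlap, as they do in most bins inside and outside both genes.

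**Figure D5:**
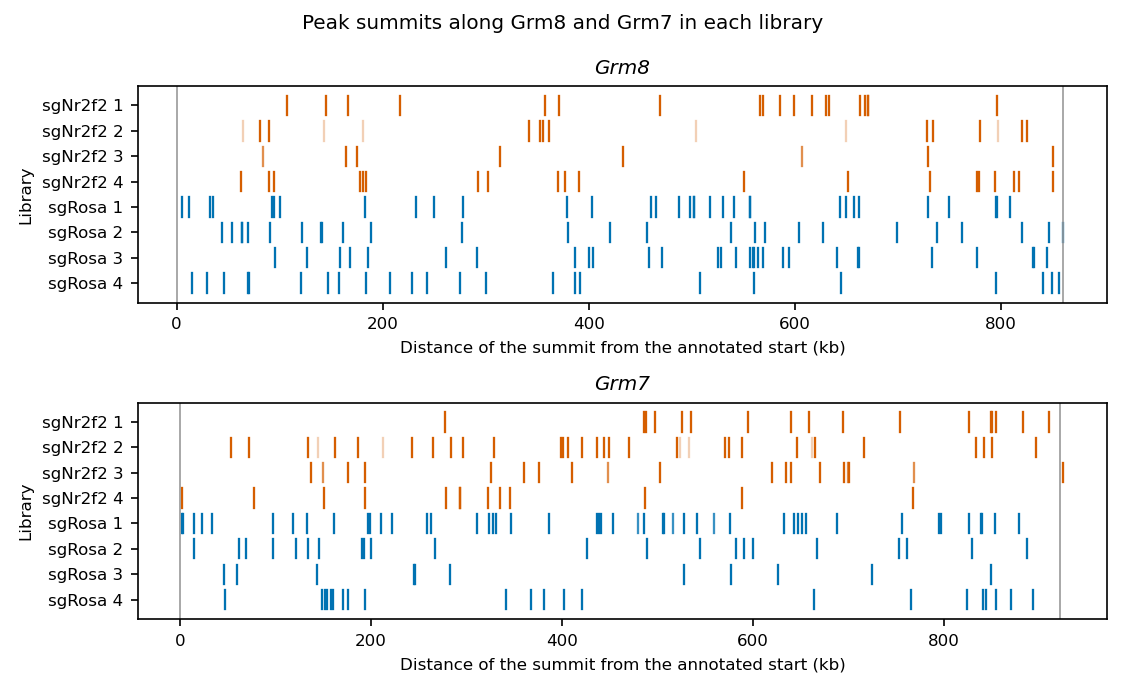
Each tick marks a peak summit at its distance from the annotated start (kb), with 1 line of ticks per library (sgNr2f2 above sgRosa), for Grm8 and Grm7; paler ticks are peaks tied at the list limit that count in part. The ticks scatter along the whole of both genes, and sgRosa 1 has the most in each (33 in Grm8 and 47.3 in Grm7).

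Few of these peaks were found again in another library. The full lists held 804 peaks at the 7 genes, which merged into 737 regions, and 675 of these were present in 1 library, 57 in 2, 5 in 3 and none in 4 or more. The share in 2 or more libraries was 8.41% at the receptor genes and 6.91% over all 600282 regions. The order was the other way among peaks above the limit of the equal-length lists, with 4.50% at the receptor genes and 4.88% over all regions. These lists leave out tied peaks and so differ in length, from 44640 peaks in sgRosa 2 to 53860 in sgRosa 3. In the full lists Grm8 had 243 regions, 225 of them in 1 library, and Grm7 had 259, with 234 in 1 library. In the lists without tied peaks, the regions in 3 libraries were 1 in Grm4 and 1 in Grm6. That of Grm4 (chromosome 17, 27499491 to 27499925) was listed in sgNr2f2 1, sgRosa 1 and sgRosa 2. That of Grm6 (chromosome 11, 50863146 to 50863430) was listed in sgNr2f2 3, sgRosa 3 and sgRosa 4. At full length 3 regions of Grm8 also reached 3 libraries, and no region of Grm8 was found in more. They lie at 27314792 to 27315165, 27472440 to 27472891 and 27951538 to 27951899 on chromosome 6, and each was listed in 1 sgNr2f2 and 2 sgRosa libraries.

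The receptor peaks were of middling strength within the lists. Their median fold enrichment, the authors' own value for each peak, was 2.65, as over all 648917 peaks, and 10.4% had a q value under 0.05 against 9.95% of all peaks. The strongest by −log10 p was a Grm8 peak of sgRosa 1 (chromosome 6, 28102524 to 28102764), with a −log10 p of 7.61 and a fold enrichment of 3.72, which ranked 741 of 63648 in its list and lay 32495 bp from the outermost start. For Grm7 it was also a peak of sgRosa 1 (chromosome 6, 111300557 to 111300739, −log10 p of 6.97), and for Grm3 one of sgNr2f2 1 (chromosome 5, 9526066 to 9526238, −log10 p of 7.25). The strongest Grm4 peak came from sgNr2f2 4 (chromosome 17, 27488897 to 27489046, −log10 p of 7.21) and that of Grm5 from sgRosa 4 (chromosome 7, 87921075 to 87921245, −log10 p of 6.01). Grm2 and Grm6 peaked at a −log10 p of 5.02 in sgNr2f2 3 (chromosome 9, 106651706 to 106651896) and of 5.21 in sgRosa 4 (chromosome 11, 50863204 to 50863353).

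Over the 8 libraries, the peak number of Grm8 was much like that of Gpc5 (Pearson r = 0.914), Med12l (0.889), Lrrc4c (0.887) and Lrba (0.870), which were near the top of 972 other genes of at least 200 kb. For Grm7 the nearest were Nubpl (0.964), Cntn3 (0.955), Dchs2 (0.919), Aoah (0.914) and Tmtc1 (0.913). These values describe 8 libraries that share their lists and group structure and carry no test. Grm7 and Grm8 themselves were less alike (r = 0.298), and Grm7 ranked 201st in likeness to Grm8.

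The receptors' signalling partners were compared through 46 genes, all of them with a peak: scaffolds such as Homer1 and Shank2, G protein subunits, phospholipase C, adenylyl cyclases, kinases, regulators and channels. Their mean peak number was higher in sgNr2f2 for 25, lower for 20 and equal for 1, where 52.8% of all genes with a peak were higher and 38.5% lower. The median difference was 0.12 peaks, against 0.07 over all 19299 genes. The list was chosen with earlier results of these data known, so its counts and p-values are descriptions and nothing is read from them. By the two-sided exact permutation test with adjustment over all genes, 0 of the 46 passed and 3 had the smallest possible p of 0.0286 (adjusted p = 1), where 1.42% of all genes had an exact p under 0.05. A gene could pass adjustment only if most genes had that smallest p. The adjusted result was thus all but fixed by the number of libraries, and nothing is read from it. With limma on the 18 of the 46 genes of at least 200 kb, 0 passed and 3 had an unadjusted p under 0.05, which 7.47% of the 990 genes of that length had. All 3 genes from the exact test had higher values in sgNr2f2 without overlap, as did 1.01% of all genes.

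Plcb4, a phospholipase C activated by Gq, had 12, 11.1, 12.8 and 12 peaks in sgNr2f2, against 4, 6.99, 5 and 8 in sgRosa. Gnaq, the alpha subunit of Gq, had 7.59 ± 1.32 peaks in sgNr2f2 and 4.33 ± 0.465 in sgRosa. Adcy5, an adenylyl cyclase that Gi restrains, had 5.96 ± 1.85 in sgNr2f2 and 2.75 ± 0.955 in sgRosa. Its lowest sgNr2f2 library had 4 peaks and its highest sgRosa library 3.993, a gap made by counting tied peaks in part. With ties in file order both values were 4, so the Adcy5 groups are better read as touching than as apart. Of the 8 settings that recount peaks in all libraries, the gap was absent in 3 for Plcb4, in 3 for Gnaq and in 6 for Adcy5. The groups of all 3 genes overlapped in the strongest 26932 peaks of each list and at a q value under 0.05. Among the other pathway genes, the largest differences were those of Dgkb, a diacylglycerol kinase, at 10.4 ± 4.1 peaks in sgNr2f2 against 19.2 ± 3.59 in sgRosa (exact p = 0.0571), and Pde4d, a cyclic AMP phosphodiesterase, at 28.6 ± 5.46 in sgNr2f2 against 36.9 ± 9.28 in sgRosa (exact p = 0.171). Dlgap2, a postsynaptic scaffold, had 30.8 ± 10.5 in sgNr2f2 against 23.2 ± 5.64 in sgRosa (exact p = 0.286), and Plcb1, another Gq-activated phospholipase C, had 19.5 ± 8.64 in sgNr2f2 against 13.7 ± 7.41 in sgRosa (exact p = 0.343).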

How the data were processed

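ATAC-seq was measured in 8 libraries, 4 sgNr2f2 and 4 sgRosa, grouped by the sample titles. The deposited files are 1 mm10 narrowPeak list per library, called by the authors in each library separately. Each deposited line gives an integer score, a fold enrichment (a ratio over background) and the caller's −log10 p and −log10 q. The lowest deposited −log10 p was 2.00. The submitters' processing notes list MACS2 2.2.9.1, HOMER 4.10, DiffBind 3.10.0, Picard, fastp 0.23.2, MultiQC 1.11 and FastQC 0.11.9. The aligner, duplicate removal, Tn5 shift and calling options are not given in the sources used here. Values were not scaled between libraries by the authors, so they served only to rank, filter and describe peaks within a list.

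Where an interval had several summits, the one with the highest −log10 p was kept, and 3499 lines dropped out. The strongest 53864 peaks per library by −log10 p were kept. In library sgNr2f2 2, 18530 peaks were tied for the last 5311 places, and in file order 0 of its 1119 tied chromosome 6 peaks would have been kept. Tied peaks therefore shared the places evenly. Genes came from RefSeq (GRCm38.p6), and all 7 symbols matched. Start sites with strand were present for 5 of the 7 genes in the promoter table.

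The members, gene lists and tests were chosen with earlier results of these data known. The text names all 7 genes, their strongest peaks and regions in 3 or more libraries, pathway genes whose groups do not overlap with the 4 next largest differences, and the 5 genes most like Grm8 and Grm7. Not every gene so selected is reported here. Group tests were two-sided exact permutations of mean peak number (smallest p 0.0286). Gene density was compared with the flanks by limma 3.58.1 (R 4.3.3) with a trend. Both used Benjamini-Hochberg adjustment over all genes tested. Nothing beyond the labels' 4 mice per group says that libraries are separate animals, so p-values measure the spread between these libraries. Python 3.11.15, numpy 2.4.6, pandas 2.3.3 and matplotlib 3.10.9 were used. The calculations were tested on simulated counts for 945 autosomal genes, drawn from a Poisson distribution, whose variance equals its mean. The real peak numbers of genes of at least 200 kb varied more, with a median variance of 1.82 times the mean. The rates that follow therefore hold for the simulated counts and not for these libraries. Of the genes made 2-fold denser than their flanks 99 of 100 were called, and of those made less dense 81 of 100, with 13 calls among 745 unchanged genes. In the group comparison, 73 of 200 genes made 2-fold lower had groups that did not overlap, as did 5 of 745 unchanged genes, and 0 of the 200 passed adjustment. Alternatives covered list length, ranking, windows, q value, flank width, added peaks and libraries left out.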

Additional observations from a re-analysis of the deposited data

Results flagged for a closer look

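In 3 of the 28 combinations of gene, measure (gene or flank peaks) and group examined, 1 library stood far from the others of its group, and chance gives about 1 in 20. Library sgNr2f2 2 had 29.2 peaks in the flanks of Grm2, where the other sgNr2f2 libraries had 67.2 to 72. Library sgRosa 4 had 2 peaks at Grm2, where the other sgRosa libraries had 0, so that any peak would have stood apart and the chance rate does not apply. Library sgRosa 2 had 56.0 peaks in the flanks of Grm3, where the other sgRosa libraries had 44 to 45.0.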

How the results depend on the processing

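The Grm8 groups stayed apart, sgNr2f2 below sgRosa, in 7 of the 8 settings that recount peaks in all libraries (list length, ranking, window, summits, q value and ties). They overlapped at a q value under 0.05 (difference −3.75 peaks, against −13.5) and, in a scaling chosen after seeing the data, per chromosome 6 peaks. Leaving out 1 library gave −15.2 to −11.0 for Grm8. These settings recount largely the same peaks, in the contrast on which Grm8 was picked, so they lend the Grm8 difference no support. For the sum of the 7 genes, leaving out 1 library gave −19.8 to −9.11 around −16.0, and a q value under 0.05 gave −3.5. No density of Grm3, Grm5, Grm7 or Grm8 against its flanks was called in any setting. The 34 genes called denser became 75 at a q value under 0.05, 61 with 1 peak added, 136 from 100 kb, 5 from 400 kb, and 0 both without the X chromosome (chosen after seeing the data) and by sign-flip test. The 6 called less dense became 3 in lists of 26932, 15 from 100 kb, 2 from 400 kb, 2 without the X chromosome and 0 by sign-flip test. The labels do not say whether same-numbered libraries of the groups belong together. Same-numbered libraries correlated at −0.0223 to 0.0659 and differently numbered ones at −0.155 to 0.0984. These values show no pairing by number but cannot exclude a shared day or batch. With the replicate number as a block, 35 genes were denser and 6 less dense. The block cannot change the summed difference of −16.0, since each number has 1 library per group. By exact test with this block 0 flanks and 0 pathway genes passed, and none could, because its smallest p is 0.125. The unadjusted count of pathway genes ran from 0 to 4 over the settings. That of flanks, 0, became 1 in lists of 26932, with 50 kb around the genes, without sgNr2f2 3 and with ties in file order, and 2 without sgNr2f2 2. Ties in file order and limma without a trend, both chosen after seeing the data, gave 35 and 31 denser genes and 6 and 7 less dense. Unknown depth and weak peaks limit every peak number, most of all those of Grm2 and Grm6.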
